A study of Mus musculus with 6 samples.

Results

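The data described here are the response of mouse embryonic stem cells (ESCs) to an siRNA against Mbd2. The comparison uses 4 of the 6 libraries of the series, the siMbd2 pair and the CTR pair, and covers the 11428 of 13743 table entries whose mean over all 6 libraries was at least 1 RPKM (a read density corrected for transcript length and library size). Every group, the CTR cells included, was labelled as ESCs of strain C57/129 with the genotype Dgcr8-/-, and RNA was taken 48 h after transfection. DGCR8 works with Drosha to release microRNA precursors in the nucleus, so the Mbd2 response was measured in cells expected to lack canonical microRNAs. Per the labels, siRNAs and microRNA mimics were delivered at 50 nM with DharmaFECT1. The siMbd2 group received the Mbd2 siRNA, and the miR-294 group, used here for levels side by side, a direct comparison with siMbd2 and the shared estimate of spread, received a mimic of that microRNA. The content of the CTR transfection is unknown beyond the word mock in the table, and the number of siRNA sequences and of ESC clones is not stated either. Per the labels each sample's values average those of a pair of lanes, and the labels do not say whether replicates were separate cultures, so p-values measure only the spread between these libraries.

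MBD2 is a methyl-CpG binding protein. It reads methylated CG dinucleotides in DNA and recruits the NuRD complex, which combines histone deacetylases with a CHD chromatin remodeller and is known as a repressor of methylated promoters. ESCs tolerate loss of much of their DNA methylation, and MBD2 has a close relative, MBD3, that occupies the same place in NuRD without depending on methylated DNA.

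Values were compared as log2(RPKM + 1) in limma, with Benjamini-Hochberg adjustment over all 11428 genes. A gene was called at an adjusted p under 0.05, and rose, fell and changed are used of called genes only. Log2 changes below are siMbd2 minus CTR on that scale, which understates the change of genes at low RPKM, and SE is the standard error of the change with n = 2 libraries in each group. With 2 libraries in each group, the smallest p of an exact two-sided permutation test is 0.333, so each call rests on the spread that limma shares across genes. Read depth is unknown from RPKM. The CTR pair was the noisier one, with a median absolute log2 difference between its libraries of 0.136, against 0.060 for the siMbd2 pair.

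The targeted gene was reduced in both siMbd2 libraries. Mbd2 (chromosome 18, 70568225 to 70629134, GRCm38.p6) stood at 26.8 and 27.9 RPKM in CTR and 7.33 and 6.34 in the siMbd2 libraries, and fell by 1.86 on the log2 scale (SE 0.087, adjusted p = 5.05e-05). The mean siMbd2 level was 0.250 of the CTR mean, and the groups did not overlap, as in every called gene. Its level in the miR-294 libraries was 11.3 and 12.3 RPKM.

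The other methyl-CpG binding proteins moved little. Of 12 tested, 1 rose, Mbd1 (8.33%, against 19.5% of all genes), and 2 fell, Mbd2 among them (16.7%, against 14.9%). Mbd1, which binds methylated CG through the same domain type, went from 7 and 6.82 to 8.1 and 9.13 RPKM (log2 0.28, SE 0.089, adjusted p = 0.0402). Its adjusted p lay close to the threshold, and the call was lost when the CTR and siMbd2 libraries were fitted alone or without either siMbd2 library (highest adjusted p = 0.284). Mbd3, at 72.2 and 63.6 RPKM in CTR and 75.2 and 74.9 with siMbd2, did not pass the test (log2 0.15, adjusted p = 0.140). Without CTR replicate 1 its log2 change was 0.24. Its siMbd2 libraries lay just above both CTR libraries, by less than the CTR libraries differed from each other.

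Among 15 NuRD subunits, 3 rose (20%) and 2 fell (13.3%), near the 19.5% and 14.9% of all genes. Mbd2, the siRNA target, was among those that fell. Chd4, the remodelling ATPase of the complex, went from 86.7 and 86.2 to 99.6 and 102 RPKM (log2 0.22, adjusted p = 0.0135), and the scaffold subunit Gatad2a from 28.1 and 25.3 to 32 and 33.3 (log2 0.28). Rbbp7, a histone-binding subunit, fell by 0.16. The calls of these 3 subunits were lost without either siMbd2 library (highest adjusted p = 0.132, 0.143 and 0.257). Apart from Mbd2, the largest change of a called subunit was 0.36, for Cdk2ap1, and that call too was lost without either siMbd2 library (highest adjusted p = 0.124). With quantile normalization of the libraries the counts became 2 higher and 8 lower, so the balance of calls depended on scaling. The median log2 change of the list was -0.16, against 0.02 for all genes. It was -0.23 after quantile normalization and stayed between -0.23 and -0.089 over the alternatives.

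Across all genes, 3933 of 11428 (34.4%) were called. Of these, 2231 rose (19.5% of the genes tested) and 1702 fell (14.9%). With only the CTR and siMbd2 libraries in the fit, 3109 genes were called, 1766 higher and 1343 lower. That fit kept 78.5% of the reported calls. On the log2(RPKM + 1) scale, which understates the change of low genes, 81.6% of called genes changed by less than 1.5-fold. On that scale changes of at least 1.5-fold were called for 371 genes that rose (3.25%) and 351 that fell (3.07%), and changes of at least 2-fold for 40 and 31. With a pseudocount of 0.1 in place of 1, 530 genes rose and 609 fell by at least 1.5-fold. Counted without a test, both siMbd2 libraries lay above both CTR libraries for 4224 genes (37.0%) and below both for 3497 (30.6%). All 3933 called genes were among them, so separate groups add nothing to a call. The median log2 change of all tested genes was 0.02.

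**Figure D1:**
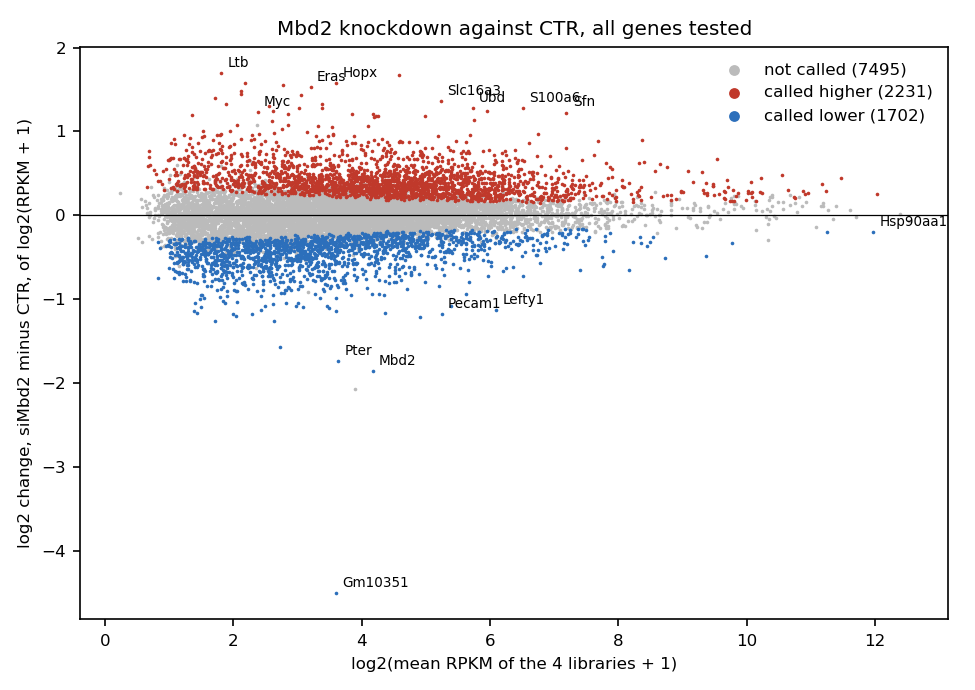
Log2 change (siMbd2 minus CTR) of each of the 11428 genes against log2 of its mean RPKM over the 4 libraries plus 1; red points rose (2231), blue points fell (1702) and grey points were not called. Called genes lie on both sides at every level, and few lie beyond a log2 change of 1 in either direction.

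The balance of calls depended on expression level. Of the 3030 genes with a mean of 1 to 5 RPKM, 11.5% rose and 20.4% fell, while of the 669 genes at 100 RPKM or more, 33.8% rose and 8.67% fell. After quantile normalization, which forces the libraries to 1 common distribution, the shares were 15.1% and 16.0% in the lowest class and 19.9% and 16.9% in the highest. A small rise of an abundant gene therefore depended on how the libraries were scaled.

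**Figure D2:**
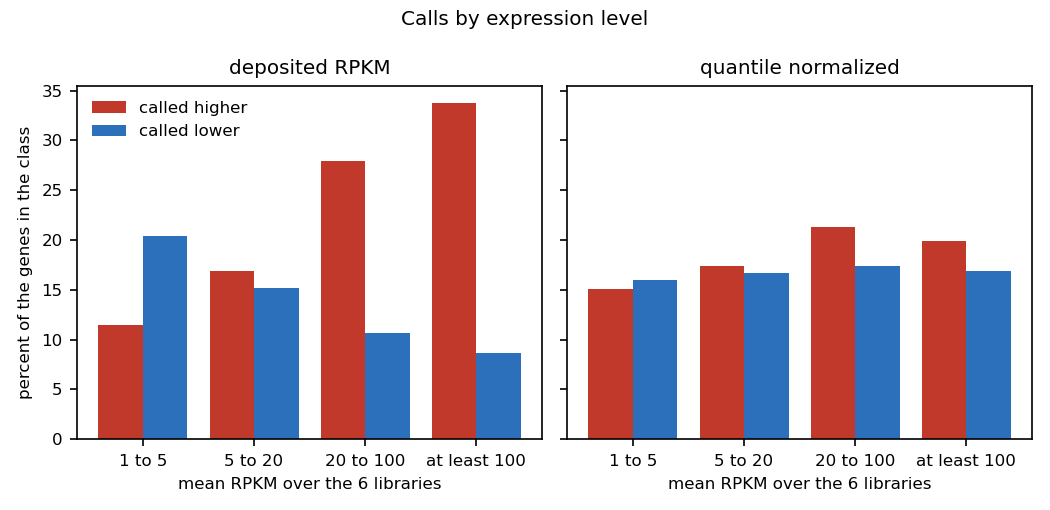
Percentage of genes called higher (red) or lower (blue) in 4 classes of mean RPKM over the 6 libraries, from the deposited RPKM (left) and after quantile normalization (right). The rise of the red bars with level, from 11.5% to 33.8%, is weaker on the right panel, where they run from 15.1% in the lowest class to 21.3% in the third and 19.9% in the highest.

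The largest rises by log2 change included several genes of inflammatory signalling, cell adhesion and the cytoskeleton. AU015836, a long noncoding RNA gene on chromosome X by RefSeq, stood at 10.8 and 10.2 RPKM in CTR and 35.4 and 35.8 with siMbd2 (log2 1.67, SE 0.066, adjusted p = 4.02e-05). Hopx, a homeodomain protein that does not bind DNA itself, went from 5.46 and 4.76 to 16.4 and 18.1 RPKM (log2 1.58, SE 0.088, adjusted p = 6.03e-05). Eras, an ESC-expressed relative of Ras that signals to PI3 kinase, went from 3.59 and 3.93 to 12.6 and 12.8 (log2 1.53, adjusted p = 5.36e-05). In each of these 3 genes the siMbd2 libraries were more than 3 times the CTR mean and agreed closely with each other.

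The 20 highest included genes of secreted and surface proteins. Tnfsf9, the ligand of the lymphocyte receptor 4-1BB, went from 1.24 and 1.32 to 5.76 and 5.79 RPKM (log2 1.57), and Fgf17, a fibroblast growth factor, from 2.71 and 2.24 to 8.67 and 9.64 (log2 1.55). The integrin subunit gene Itga9 went from 4.6 and 5.37 to 14.1 and 13.8 RPKM (log2 1.32). Madcam1, an addressin bound by lymphocyte integrins, stood at 1.62 and 1.09 in CTR and 5.37 and 5.33 with siMbd2, against 1.26 and 1.34 in the miR-294 libraries. Nrp2, a neuropilin receptor, went from 9.26 and 10.5 to 23.4 and 24.9 RPKM (log2 1.21). The rule that chose these genes required groups that do not overlap.

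More abundant genes were also among them. S100a6, a calcium-binding protein, went from 53.8 and 51.2 to 126 and 131 RPKM (log2 1.27, SE 0.062, adjusted p = 5.05e-05), with 53.5 and 57.8 in the miR-294 libraries. Sfn, which encodes the epithelial 14-3-3 protein sigma, went from 88.97 and 84.3 to 194 and 214 RPKM (log2 1.23, SE 0.065), with 55.2 and 53.3 under miR-294. Slc16a3, the lactate exporter MCT4, went from 22.03 and 18.5 to 54.3 and 52.5 (log2 1.36). The uncharacterised gene E130012A19Rik went from 36.3 and 35.5 to 81.5 and 91.5 RPKM. Apol6 rose by 1.48 and Myl9, a myosin regulatory light chain, by 1.28. Myc, the growth-promoting transcription factor, stayed low in RPKM, at 1.84 and 2.41 in CTR and 5.71 and 6.91 with siMbd2 (log2 1.23), against 25.98 and 26.95 in the miR-294 libraries.

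**Figure D3:**
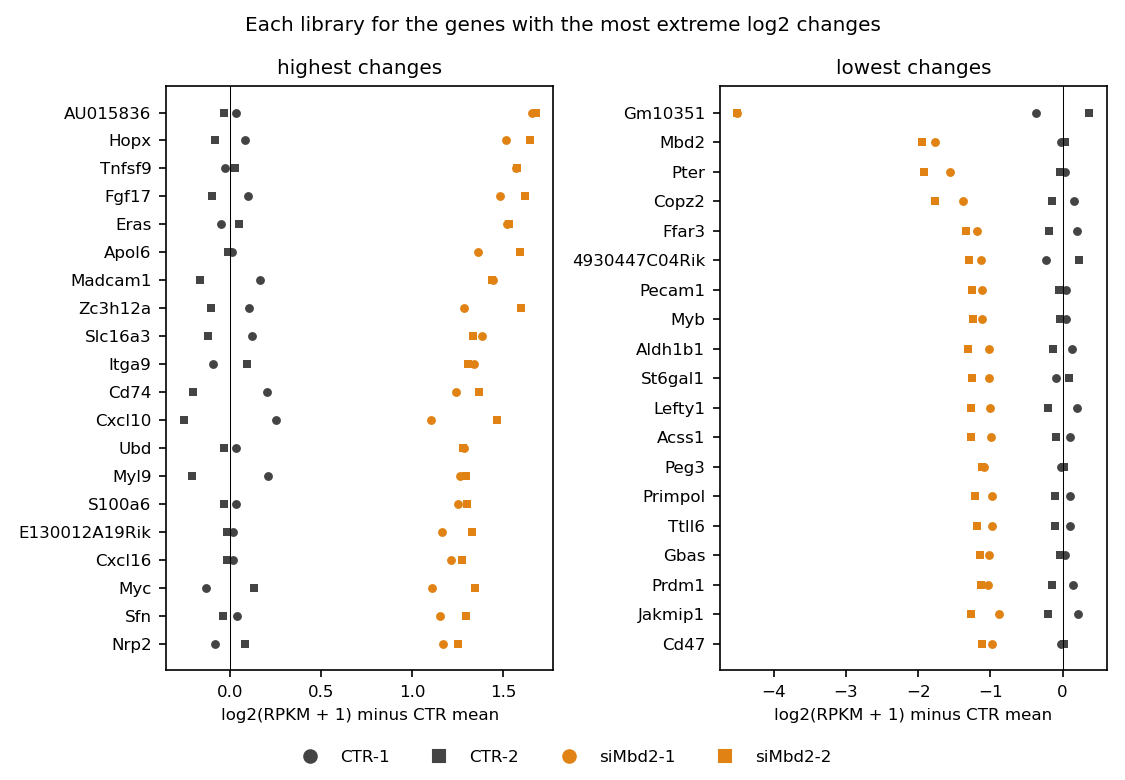
Log2(RPKM + 1) of each CTR (dark) and siMbd2 (orange) library minus the mean of the CTR libraries, for the 20 highest (left) and 19 of the 20 lowest (right) log2 changes among called genes with groups that do not overlap and a higher-group mean of at least 5 RPKM; circles are replicate 1 and squares replicate 2. The separation of the groups in all 39 genes was required by that choice, and Gm10351, at the top of the right panel, is listed at 0 in both siMbd2 libraries.

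Falls of similar size affected genes with varied functions. Pter, a phosphotriesterase-related protein, went from 18.6 and 17.6 RPKM in CTR to 5.47 and 4.07 with siMbd2 (log2 -1.74, SE 0.12, adjusted p = 0.000130). Copz2, a coatomer subunit of vesicle coats, went from 9.9 and 7.83 to 2.78 and 1.89 (log2 -1.57, SE 0.16), and Ffar3, a receptor for short-chain fatty acids, from 8.97 and 6.62 to 2.85 and 2.46 (log2 -1.26). For Pter the siMbd2 and miR-294 libraries stood at like levels, with 5.56 and 5.06 RPKM under miR-294 and an adjusted p of 0.345 between the treatments.

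Pecam1, an adhesion molecule of ESCs and endothelium, went from 53.6 and 49.97 to 23.4 and 21.1 RPKM (log2 -1.18, SE 0.072, adjusted p = 7.63e-05), and Prdm1, a transcriptional repressor of germ cell specification, from 10.8 and 8.57 to 4.19 and 3.85 (log2 -1.08). Lefty1, a secreted inhibitor of Nodal, varied within CTR, at 106 and 80.5 RPKM, and was lower in both siMbd2 libraries, at 45.7 and 37.97 (log2 -1.13, SE 0.13). The imprinted zinc finger gene Peg3 went from 14.1 and 14.6 to 6.19 and 6.08 (log2 -1.10). Among metabolic genes, Aldh1b1, a mitochondrial aldehyde dehydrogenase, fell by 1.17, and Acss1, which makes acetyl-CoA in mitochondria, by 1.13. St6gal1, a sialyltransferase, fell by 1.14, and Cd47, the surface ligand that restrains phagocytosis, by 1.04. Myb, a transcription factor of blood progenitors, fell by 1.17, Primpol, a primase and DNA polymerase, by 1.09, and the tubulin-modifying enzyme Ttll6 by 1.08. Gbas fell by 1.08, Jakmip1 by 1.08 and 4930447C04Rik by 1.22. Gm10351, at 16.5 and 28.3 RPKM in CTR, was listed at 0 in all siMbd2 and miR-294 libraries, so no fold is given for it, and a predicted gene of this kind may share reads with near-identical copies.

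Because the targeted protein reads CG dinucleotides, the sequence just before the start of the most changed genes is shown, with every CG in capitals. The genes are the 3 highest and 3 lowest log2 changes held by the RefSeq promoter table (GRCm38.p6, the same assembly as mm10). Each line gives the 250 bases before the start that this table uses, 5′ to 3′ on the gene's strand, and for Pter that start lies a few bases inside the gene as the RefSeq gene table bounds it.
Hopx: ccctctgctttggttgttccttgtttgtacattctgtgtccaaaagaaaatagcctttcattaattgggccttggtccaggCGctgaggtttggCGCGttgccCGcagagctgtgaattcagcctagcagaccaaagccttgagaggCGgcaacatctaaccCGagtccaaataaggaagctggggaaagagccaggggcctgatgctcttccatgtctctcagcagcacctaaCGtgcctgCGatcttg
Eras: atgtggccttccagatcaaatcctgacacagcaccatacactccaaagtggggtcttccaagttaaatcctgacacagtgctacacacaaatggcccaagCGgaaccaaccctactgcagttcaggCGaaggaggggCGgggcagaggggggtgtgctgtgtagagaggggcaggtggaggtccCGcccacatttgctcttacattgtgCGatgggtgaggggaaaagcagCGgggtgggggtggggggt
Madcam1: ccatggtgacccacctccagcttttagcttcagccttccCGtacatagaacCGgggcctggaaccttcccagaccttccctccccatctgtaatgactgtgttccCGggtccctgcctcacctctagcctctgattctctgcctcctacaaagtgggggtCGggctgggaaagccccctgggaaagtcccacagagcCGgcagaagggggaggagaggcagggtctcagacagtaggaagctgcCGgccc
Pter: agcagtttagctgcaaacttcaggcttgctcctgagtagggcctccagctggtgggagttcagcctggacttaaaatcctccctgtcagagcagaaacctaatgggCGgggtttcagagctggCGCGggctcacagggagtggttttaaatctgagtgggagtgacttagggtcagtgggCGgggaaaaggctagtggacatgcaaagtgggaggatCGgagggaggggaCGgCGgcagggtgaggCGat
Copz2: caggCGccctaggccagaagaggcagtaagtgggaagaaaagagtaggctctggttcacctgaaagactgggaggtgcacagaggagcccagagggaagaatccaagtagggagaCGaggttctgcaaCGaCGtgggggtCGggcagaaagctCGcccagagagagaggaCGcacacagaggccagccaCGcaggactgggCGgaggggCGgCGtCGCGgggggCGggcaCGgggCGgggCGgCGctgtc
Ffar3: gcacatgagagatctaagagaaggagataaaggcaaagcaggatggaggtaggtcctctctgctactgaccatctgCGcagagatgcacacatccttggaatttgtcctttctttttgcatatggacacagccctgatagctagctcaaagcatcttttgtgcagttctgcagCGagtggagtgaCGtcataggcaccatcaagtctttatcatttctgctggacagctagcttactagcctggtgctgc
The number of CG was 8 for Hopx (chr5:77115124-77115373, minus strand), 6 for Eras (chrX:7928608-7928857, minus strand), 6 for Madcam1 (chr10:79664309-79664558, plus strand), 8 for Pter (chr2:12923791-12924040, plus strand), 18 for Copz2 (chr11:96849626-96849875, plus strand) and 3 for Ffar3 (chr7:30856179-30856428, minus strand), with a median of 6 over all 32851 windows. Hopx has 2 windows in the table, and the one listed first is shown. The E-box CACGTG was in none of the 6, and its inner part ACGTG, which CACGTG contains, was in those of Hopx and Copz2, against 6.02% and 16.6% of all windows on either strand. These counts describe the letters only, and DNA methylation was not measured. Only 79.9% of tested genes had a window (80.6% of those that rose and 77.6% of those that fell), so promoter composition was not compared between genes that rose and fell.

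Genes of the NF-kappaB pathway rose more often than they fell. NF-kappaB factors are held inactive by inhibitors of the IkappaB family and, once active, raise cytokines together with their own inhibitors. Of 30 genes listed, 24 passed the level filter, 14 of those rose and 1 fell, where 19.5% and 14.9% of all genes did, and the median log2 change was 0.33 against 0.02 for all genes. Among the ligands, Ltb, which encodes lymphotoxin beta, stood at 0.69 and 0.63 RPKM in CTR and 4.25 and 4.51 with siMbd2 (log2 1.7, SE 0.092, adjusted p = 5.54e-05), and 1.75 and 1.55 under miR-294. The subunits of the noncanonical branch rose together: Nfkb2 went from 10.2 and 9.06 to 17.99 and 18.7 RPKM (log2 0.86) and Relb from 15.4 and 12.9 to 23.7 and 22.3 (log2 0.67). As in every called gene, neither overlapped between groups. The miR-294 libraries lay below CTR for both, at 5.06 and 4.72 and 7.66 and 7.03 RPKM.

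The feedback inhibitors of the pathway rose as well. Zc3h12a, an RNase that degrades inflammatory mRNAs, went from 3.8 and 3.15 to 9.86 and 12.5 RPKM (log2 1.44, SE 0.12). Nfkbie, an IkappaB protein, went from 1.58 and 1.54 to 4.38 and 3.93 (log2 1.01), and Tnfaip3, the ubiquitin-editing enzyme A20, from 1.73 and 1.84 to 3.79 and 4.07 (log2 0.82). The called member that fell was Ikbkg, the regulatory subunit of the kinase that starts canonical signalling, from 14.8 and 12.1 to 8.2 and 9.61 RPKM (log2 -0.54, SE 0.11), a call lost without siMbd2 replicate 1 (adjusted p = 0.0647). The list counts stood at 15 and 1 after quantile normalization, and ranged from 8 to 17 higher over all alternatives.

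Interferon response genes moved both ways. Of 38 listed, 25 were tested, 4 rose (16%, against 19.5% of all genes) and 6 fell (24%, against 14.9%), with a median of -0.04. Cxcl10, a chemokine, went from 4.63 and 2.96 to 9.13 and 12.02 RPKM, Isg15, a ubiquitin-like modifier, from 2.17 and 2.57 to 5.5 and 5.07, and Ddx58, the RNA sensor RIG-I, from 14.3 and 15.9 to 25.1 and 27.3. Zbp1, a nucleic acid sensor, went the other way, from 17.2 and 14.97 to 8.19 and 9.29 (log2 -0.81), as did Oasl1, related to the oligoadenylate synthetases (log2 -0.49), a call lost without siMbd2 replicate 1 (adjusted p = 0.0558). The most abundant member, Ifitm1, went from 877 and 661 to 581 and 508 RPKM (log2 -0.49, SE 0.12, adjusted p = 0.0161), and its call was lost without siMbd2 replicate 2 (adjusted p = 0.124). Interferon response genes as a list therefore did not share 1 direction.

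Antigen presentation genes were called at shares near those of all genes. Of 18 tested MHC class I presentation genes, 4 rose (22.2%, against 19.5% of all genes) and 2 fell (11.1%, against 14.9%). The heavy chain genes H2-D1 and H2-K1 went from 14.1 and 10.5 to 22.02 and 20.7 RPKM and from 19.5 and 15.2 to 27.2 and 29.2, though class I genes resemble each other closely and may share reads. B2m, the light chain, went from 15.7 and 20.9 to 26.5 and 24.6 (log2 0.47), and Tapbp, which loads peptides, from 64.6 and 62.5 to 80.3 and 80.8 (log2 0.34). The calls of B2m and Tapbp were lost without either siMbd2 library (highest adjusted p = 0.107 and 0.0702). The falls were of the proteasome activator genes Psme1, from 103 and 97.8 to 90.8 and 87.5, and Psme2, from 109 and 98.7 to 87.2 and 81.5. Both falls lost their call without either siMbd2 library (highest adjusted p = 0.294 and 0.138), and that of Psme1 in 11 of 16 alternatives. Outside that list, the ubiquitin-like gene Ubd went from 30.9 and 29.4 to 74.8 and 74.3 RPKM (log2 1.28, SE 0.068), the chemokine Cxcl16 from 2.69 and 2.61 to 7.46 and 7.82, and the class II invariant chain Cd74 from 2.91 and 1.95 to 7.01 and 7.77. Ubd stood at 14.4 and 15.96 RPKM in the miR-294 libraries, below CTR.

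**Figure D4:**
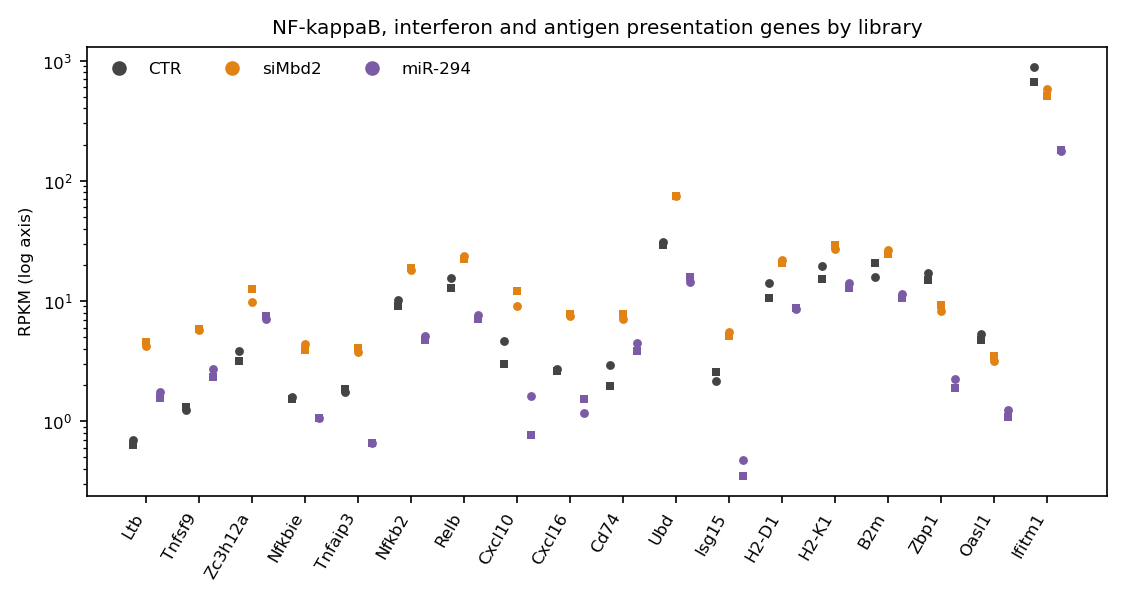
RPKM (log axis) of 18 NF-kappaB, interferon and antigen presentation genes in each CTR (dark), siMbd2 (orange) and miR-294 (purple) library; circles are replicate 1 and squares replicate 2. From Ltb to B2m the siMbd2 points lie above the CTR points, whereas for Zbp1, Oasl1 and Ifitm1 they lie below.

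Targets and feedback genes of the FGF and MAPK pathway also rose more often than they fell. FGF4 made by ESCs activates this cascade, and its immediate targets include both transcription factors and inhibitors that dampen it. Of 30 listed genes 24 were tested, 12 rose (50%, against 19.5% of all genes) and 0 fell (against 14.9%). The median log2 change was 0.27, against 0.02 for all genes. Ier3, an immediate early gene, went from 10.2 and 10.2 to 22.7 and 21.96 RPKM (log2 1.06, SE 0.098, adjusted p = 0.000359), against 4.83 and 6.07 under miR-294. Etv4, an ETS factor, went from 25.2 and 22.7 to 44.2 and 50.1 (log2 0.95), and Spry4, an inhibitor of receptor signalling, from 14.8 and 17.1 to 28.5 and 31.4 (log2 0.87). Groups were separate for all 3, as for every called gene. Egr1 went from 3.42 and 4 to 7.14 and 7.49 RPKM, Junb from 16 and 15.3 to 25.6 and 27.01, and the MAPK phosphatase Dusp1 from 30.4 and 27.04 to 39.8 and 41.4. Over the scaling alternatives the list kept 12 or more rises, and over all alternatives between 8 and 13. Among 17 tested ligands, receptors and Ras proteins, 6 rose (35.3%) and 2 fell (11.8%). Besides Fgf17 and Eras, Fgf15 rose by 0.90 and the GTPase gene Hras by 0.49.

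The TGF-beta superfamily lists differed in which members moved. In the Nodal list, 1 of 21 rose (4.76%, against 19.5% of all genes) and 6 fell (28.6%, against 14.9%). Besides Lefty1, the second inhibitor Lefty2 went from 22.7 and 21.3 to 13.6 and 13.4 RPKM (log2 -0.67, SE 0.075). Tgfb1, the ligand, was the member that rose, from 1.57 and 1.21 to 3.01 and 3.14. In the BMP list, 6 of 15 rose (40%) and 1 fell (6.67%). Id1, a helix-loop-helix inhibitor of differentiation and BMP target, went from 109.8 and 101 to 182 and 186 RPKM (log2 0.80, SE 0.059, adjusted p = 0.000181), and Id2 from 44.4 and 43.4 to 60.9 and 61.5. The ligand Bmp4 was low, at 0.84 and 0.7 in CTR and 1.75 and 2.33 with siMbd2. Bambi, a decoy receptor, went from 1.84 and 1.73 to 1.14 and 1.36, and its call was lost after quantile normalization and without any 1 CTR or siMbd2 library (highest adjusted p = 0.218). The WNT list had 6 rises and 4 falls in 21, led by the nuclear effector Tcf7, from 9.34 and 8.6 to 15 and 14.4 RPKM (log2 0.66).

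Pluripotency genes stayed abundant. As a check of the cell type chosen after their values were seen, Pou5f1 stood at 790.4 and 689 RPKM in CTR and 914 and 946 with siMbd2, and Nanog at 354 and 372 and 297 and 279, so both groups carried the defining markers of ESCs. In the limma test Pou5f1 rose by 0.33 (adjusted p = 0.00933) and Nanog fell by 0.33 (adjusted p = 0.00369). The Pou5f1 call was lost after quantile normalization (log2 0.15, adjusted p = 0.0551) and without either siMbd2 library. That of Nanog was lost without siMbd2 replicate 2. In the list of 34 core and naive factors 11 rose (32.4%, against 19.5% of all genes) and 8 fell (23.5%, against 14.9%). Quantile normalization left 7 of this list higher and 8 lower, and its median went from 0.07 to -0.03. Sox2, a core factor, fell by 0.42, from 259.8 and 289 to 208 and 201 RPKM. Lin28a, which blocks the maturation of let-7 microRNAs, went from 4.42 and 5.44 to 10.7 and 10.9 (log2 0.99), Tcl1, an AKT coactivator, from 18.6 and 14.5 to 32.1 and 30.1, and Gbx2, a homeobox factor, from 5.86 and 7.02 to 10.9 and 11.1. The same Lin28a was at 90.7 and 91.2 RPKM with miR-294. Of 16 tested primed and formative markers, 8 rose (50%) and 0 fell, with a median of 0.27. They included the tight junction gene Cldn6, from 11.3 and 9.56 to 19.07 and 19.7 RPKM, and the de novo DNA methyltransferase Dnmt3b, from 32.9 and 31.8 to 45.8 and 48.6. Otx2, the best known marker of this list, did not pass the test (log2 -0.08, adjusted p = 0.465).

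The marker lists of other cell types held genes near 0 beside genes that were abundant in every library. For feeder fibroblasts, 3 of 19 listed genes passed the level filter, and Col1a1 stood between 0.06 and 0.19 RPKM in the CTR and siMbd2 libraries. Tagln, an actin-binding protein on that list, rose from 12.3 and 11.2 to 21.96 and 23.7 RPKM. Twist1, at 4.91 and 4.47 and 3.7 and 3.48, and Thy1, at 1.56 and 1.47 and 0.96 and 1.13, were called lower. The calls of Twist1 and Thy1 were each lost in 7 of 15 alternatives. These included quantile normalization and the limma fit of the CTR and siMbd2 libraries alone (adjusted p = 0.0569 and 0.0691 in that fit). Of 9 tested neural markers 6 fell (66.7%, against 14.9% of all genes) and 1 rose (11.1%, against 19.5%). Neurod1 went from 4.37 and 4.8 to 1.72 and 1.73 RPKM (log2 -1.03), Sox1 from 8.25 and 8.38 to 4.88 and 4.18 and Olig2 from 13.7 and 11.8 to 8.79 and 7.58. Nes, an intermediate filament of progenitors, went from 3.61 and 3.97 to 6.13 and 7.29. Of 6 tested mesoderm, blood and endothelial markers 3 fell, Pecam1, Myb and Tek, and 1 rose, Myl7, from 2.47 and 2.45 to 3.35 and 3.18 RPKM (adjusted p = 0.0432), a call lost in 9 of 15 alternatives (highest adjusted p = 0.189). Endoderm markers numbered 6 tested of 22, with 2 rising and 1 falling. Sparc, a matrix protein on that list, stood at 214 and 199 RPKM in CTR and 199 and 202 with siMbd2 and did not pass the test, while the endoderm factor Gata6 lay between 0.12 and 0.18. Trophoblast markers numbered 14 tested of 20, with 4 rising and 3 falling and with Tfap2c, a transcription factor, going from 28.4 and 26.2 to 18.8 and 16.98 RPKM. In bulk samples fewer cells of a type and less RNA per cell cannot be told apart.

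Glucose metabolism genes rose more often than they fell, and transporters moved both ways. Of 24 tested genes of glucose uptake and glycolysis, 10 rose (41.7%, against 19.5% of all genes) and 2 fell (8.33%, against 14.9%). Pfkl had the largest rise of the list (log2 0.76), and the transporter gene Slc2a1 rose by 0.43. Tpi1, triose phosphate isomerase, went from 198 and 176 to 279 and 277 RPKM (log2 0.57), Aldoa, an aldolase, from 472 and 415 to 655 and 626, and Pgk1, a kinase that yields ATP, from 125 and 117 to 157 and 156. Slc2a3, the neuronal-type glucose transporter, fell by 0.60. At the exit of the pathway, 7 of 20 genes of lactate and pyruvate handling rose (35%) and 1 fell (5%). Besides Slc16a3, Ldha went from 362 and 331 to 526 and 508 RPKM and Pdhx, a structural part of the pyruvate dehydrogenase complex, from 15.7 and 14.5 to 20.2 and 21.4. Pdk4, a kinase that inhibits this complex, went from 4.23 and 3.71 to 2.58 and 2.01, a call lost without siMbd2 replicate 2 (adjusted p = 0.0531). In the hypoxia list 9 of 26 rose (34.6%) and 3 fell (11.5%).

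The citric acid cycle and respiratory chain oxidise what glycolysis delivers. In the citric acid cycle list 2 of 21 rose (9.52%, against 19.5% of all genes) and 1 fell (4.76%, against 14.9%). Sdhd, a subunit of complex II, rose by 0.48, and Suclg2, a succinyl-CoA ligase subunit, fell by 0.50. After quantile normalization 1 member of this list rose and 6 fell. Of 57 nuclear-encoded respiratory chain genes 15 rose (26.3%) and 3 fell (5.26%), with 27 rising when CTR replicate 1 was left out and 7 without siMbd2 replicate 1. Ndufa1, a subunit of complex I, went from 71.7 and 68.7 to 101 and 106 RPKM. Of the 13 mitochondrially encoded genes none passed the limma test, but 8 fell when CTR replicate 1 was left out and 7 rose when CTR replicate 2 was left out. Their share of all RPKM was 3.03% and 4.13% in the CTR libraries and 3.27% and 3.38% in the siMbd2 libraries, so the siMbd2 values lay between those of the CTR pair.

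With the deposited scaling, more growth and ribosome genes rose than fell. Of 13 members of the MYC network 5 rose (38.5%, against 19.5% of all genes) and 0 fell (against 14.9%). The network member Mlx stood at 20.99 and 20.4 RPKM in CTR and 27.3 and 27.9 with siMbd2. In a list of 40 growth genes known to respond to MYC, 18 rose (45%) and 2 fell (5%). The rises included Nme1, a nucleoside diphosphate kinase, from 22.4 and 20.4 to 34.2 and 35.2 (log2 0.67), and Srm, spermidine synthase, from 59.5 and 48.9 to 78.6 and 76.1. Quantile normalization left 9 of this list higher and 3 lower. Of 75 cytosolic ribosomal protein genes, 33 rose (44%) and 0 fell with a median of 0.18. For these genes quantile normalization left 5 higher and 4 lower with a median of 0.03. Most calls of this list thus depended on scaling. Rplp1, an acidic stalk protein, had the largest rise in RPKM of all genes, from 2755 and 2077 to 3376 and 3161, and its call was lost after quantile normalization (adjusted p = 0.0707, and 0.118 without siMbd2 replicate 1). Rpl41, Rps12, Rps14, Rps28 and Rps29 were also among the 10 largest rises in RPKM, and the calls of all 5 were lost without either siMbd2 library (highest adjusted p = 0.0626, 0.154, 0.240, 0.252 and 0.216). Ribosomal protein genes have many processed pseudogenes that can share their reads.

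Other abundant genes changed by amounts that were large in RPKM and small in fold. Tmsb4x, which binds actin monomers, went from 526 and 625 to 905 and 924 RPKM (log2 0.67, SE 0.081), Actb, the actin itself, from 1071 and 964 to 1340 and 1423, and the metallothionein Mt1 from 1338 and 1169 to 1855 and 1652. Dppa5a, a pluripotency-associated RNA-binding protein, went from 3977 and 3642 to 4715 and 4375 (adjusted p = 0.0269). Falls were led by the chaperone Hsp90aa1, from 4257 and 4312 to 3660 and 3788 RPKM, and Ptma, prothymosin alpha, from 2682 and 2520 to 2314 and 2223. Calls of Dppa5a, Hsp90aa1 and Ptma were lost when the CTR and siMbd2 libraries were fitted alone (adjusted p = 0.0870, 0.123 and 0.123) or without either siMbd2 library (highest adjusted p = 0.202, 0.224 and 0.264). Mdk, the growth factor midkine, went from 379.5 and 318 to 231 and 211, Eif4a2, an RNA helicase of translation, from 479 and 517 to 359.5 and 342, and Txnip, an inhibitor of glucose uptake and of thioredoxin, from 289.9 and 237 to 183 and 166. Nedd4, a ubiquitin ligase, went from 382 and 400.2 to 308 and 301, and Morf4l1, a chromatin reader, from 389.6 and 410.0 to 319.8 and 322. The calls of Mdk, Eif4a2, Txnip, Nedd4, Morf4l1 and Slc2a3 held under all 16 alternatives. Hnrnpa3, an RNA-binding protein, went from 925 and 1013 to 774 and 773, and its call was lost without siMbd2 replicate 2 (adjusted p = 0.0586).

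More epithelial junction and keratin genes rose than fell. Of 36 tested junction and keratin genes 16 rose (44.4%, against 19.5% of all genes) and 3 fell (8.33%, against 14.9%). Crb3, a polarity protein, went from 7.5 and 6.39 to 15.2 and 13.7 RPKM (log2 0.96), Krt19, a keratin, from 3.05 and 2.91 to 6.3 and 6.37 (log2 0.88), and Grhl2, a transcription factor of epithelia, from 4.71 and 3.94 to 7.51 and 8.37. Krt8, a keratin of simple epithelia, went from 31.8 and 26.6 to 40.5 and 43.3, and Esrp1, an epithelial splicing factor, from 12.03 and 11.5 to 17.8 and 17.8. In the mesenchymal list 9 of 20 rose (45%) and 7 fell (35%). The rises included Flna, filamin A, from 68.4 and 63.5 to 103 and 107 RPKM, Cnn2, a calponin, from 27.7 and 22.02 to 36.8 and 37.9, and Lgals1, a galectin, from 48.4 and 43.03 to 77.3 and 81.4. Fn1, fibronectin, went the other way, from 140.3 and 122 to 92.2 and 83.4 (log2 -0.57). Among integrins and matrix genes, 8 of 28 rose (28.6%) and 4 fell (14.3%). Col4a2, a basement membrane collagen, went from 10.4 and 9.38 to 15.95 and 16.3 RPKM, while Itgb3 went from 4.59 and 3.64 to 1.99 and 1.84.

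**Figure D5:**
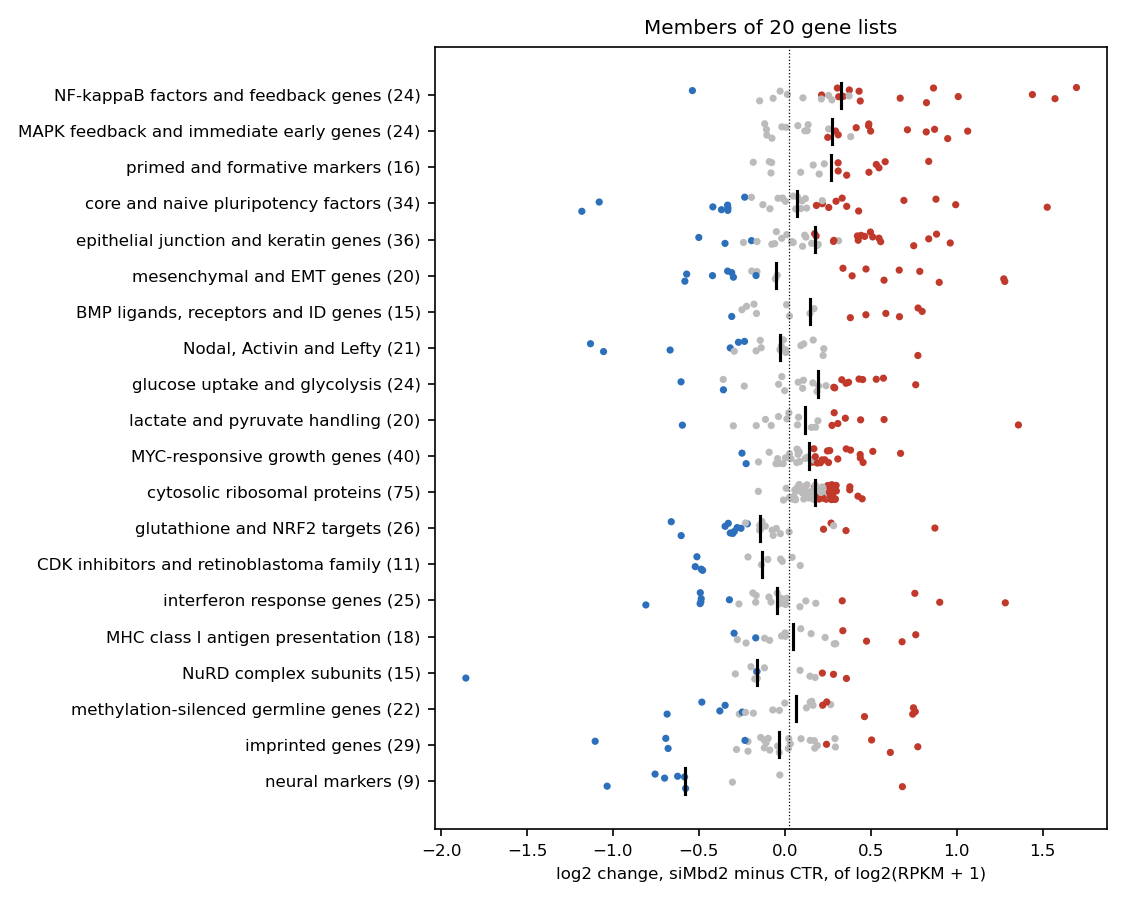
Log2 change of each tested member of 20 gene lists (number tested in parentheses); red points rose, blue points fell, grey points were not called, black bars are list medians and the dotted line is the median of all genes, 0.02. The NF-kappaB list has a median of 0.33 and the neural marker list of -0.58. The ribosomal protein rises and the balance of NuRD calls are those of the deposited scaling.

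Genes whose silencing is linked to DNA methylation did not move as a class. Of 22 tested germline genes of this kind, 6 rose and 5 fell, where 19.5% and 14.9% of all genes did. Fkbp6, a meiotic chaperone, went from 3.12 and 2.7 to 5.86 and 5.36 RPKM (log2 0.76), Tex19.1, a germline gene also active in ESCs, from 35.3 and 32.7 to 55.2 and 60.4, and Taf7l, a testis transcription factor subunit, from 1.76 and 1.53 to 3.49 and 3.36. Smc1b, a meiotic cohesin, went from 2.98 and 3.2 to 1.65 and 1.44 (log2 -0.69). Of 29 imprinted genes 4 rose (13.8%) and 4 fell (13.8%). Phlda2 and Nnat rose by 0.77 and 0.61, and Peg10 by 0.50, while besides Peg3 the genes Sgce and Copg2 fell by 0.68 and 0.69. Among 12 DNA methyltransferase and TET genes 3 rose (25%) and 0 fell, led by Dnmt3l, the cofactor of de novo methylation, from 71.6 and 72.3 to 135 and 149 RPKM (log2 0.97, SE 0.061, adjusted p = 8.34e-05), against 416 and 411 under miR-294. Dnmt1, the maintenance enzyme, did not pass the test (log2 -0.15, adjusted p = 0.146). It was called lower in the limma fit after quantile normalization (log2 -0.25, adjusted p = 0.0165). Polycomb genes gave 5 rises and 3 falls in 31 (16.1% and 9.68%), with Pcgf2, a subunit of PRC1, from 23.5 and 21.01 to 31.3 and 33.4 RPKM. Of 20 two-cell-like genes 1 rose, Zscan4d, and that call was lost without either siMbd2 library (highest adjusted p = 0.129).

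Cell cycle inhibitors were the list with falls alone. Of 11 CDK inhibitor and retinoblastoma genes 0 rose (against 19.5% of all genes) and 4 fell (36.4%, against 14.9%). Cdkn1b, which encodes p27, went from 23.7 and 28.3 to 18.99 and 17.7 RPKM (log2 -0.48, SE 0.090), Rb1, on the 1 of its 2 table entries that passed the level filter, from 9.9 and 11.03 to 6.8 and 7.27, Rbl1, a relative of Rb1, from 12.2 and 13.9 to 8.96 and 9.06, and Cdkn2c from 2.19 and 2.09 to 1.08 and 1.3. The groups were separate for these 4 genes, as for every called gene. Without siMbd2 replicate 2 the call of Cdkn1b was lost (adjusted p = 0.0591), and without siMbd2 replicate 1 that of Rb1 (adjusted p = 0.0552), and no alternative gave fewer than 3 falls. Cdkn1a, the p21 gene, did not pass the test (log2 0.09, adjusted p = 0.440). G1 cyclins, kinases and E2Fs had 7 rises and 3 falls in 21 (33.3% and 14.3%), with E2f4, a repressive E2F, from 44.7 and 40.7 to 57.8 and 59.9 RPKM. Mitosis genes (5 rises and 7 falls in 33, 15.2% and 21.2%) and replication factors (5 and 7 in 41, 12.2% and 17.1%) moved both ways, as did all genes (19.5% and 14.9%). Cenpf, a kinetochore protein, fell by 0.48.

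Stress, redox and lipid genes completed the lists. Of 26 tested glutathione and NRF2 target genes 4 rose (15.4%, against 19.5% of all genes) and 10 fell (38.5%, against 14.9%). Nqo1, a quinone reductase, went from 89.9 and 88.96 to 56.1 and 56.3 RPKM (log2 -0.66, SE 0.053, adjusted p = 0.000242) and Gstm1, a glutathione transferase, from 85.8 and 68.5 to 52.8 and 47.5. Hmox1, heme oxygenase, went the opposite way, from 34.1 and 33.7 to 59.2 and 66.8 (log2 0.87). Of 34 cholesterol and fatty acid synthesis genes 11 rose (32.4%) and 1 fell (2.94%), by at most 0.44 on the log2 scale. Lss, which forms lanosterol, went from 9.12 and 7.96 to 11.3 and 12.7, a call lost without siMbd2 replicate 2 (log2 0.37). Among p53 targets 7 of 27 rose (25.9%) and 4 fell (14.8%). Sesn2, a stress sensor of TORC1, went from 38.8 and 34.1 to 55.2 and 56.5 and Rrm2b, a ribonucleotide reductase subunit, from 13.4 and 12.96 to 6.94 and 6.96. Cell death genes gave 8 rises and 2 falls in 27 (29.6% and 7.41%): Ripk3, the necroptosis kinase, went from 2.93 and 2.07 to 5.44 and 5.61 RPKM. ATF4 targets gave 3 and 3 in 26 (11.5% each) and the pentose phosphate pathway 2 and 2 in 8 (25% each). Aldehyde dehydrogenases gave 1 and 2 in 14 (7.14% and 14.3%), with Aldh3a1 rising from 2.94 and 3.42 to 6.9 and 7.6. For the microRNA machinery, 2 of 13 rose (15.4%) and 3 fell (23.1%), and Drosha, the nuclear microRNA-processing enzyme, rose by 0.39. Dgcr8 mRNA was listed at 7.49 and 8.44 RPKM in CTR and 7.24 and 7.34 with siMbd2, and RPKM per gene does not show whether its transcript is intact.

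The siMbd2 cells differed widely from the miR-294 cells, with 57.4% of genes called between them. Both comparisons with CTR share the CTR libraries, so levels are set side by side and the 2 treatments are then tested against each other. Dnmt3l, Lin28a, Eras and Myc were higher under siMbd2 than in CTR and higher again under miR-294, whereas S100a6, Sfn, Ubd, Madcam1 and Myl9 were higher under siMbd2 than in both other groups. Tested directly, siMbd2 exceeded miR-294 by 1.19 for S100a6 (adjusted p = 5.43e-06), 1.89 for Sfn (adjusted p = 1.21e-06) and 2.22 for Ubd (adjusted p = 7.56e-07), and lay below it by a log2 difference of -2.97 for Lin28a (adjusted p = 7.56e-07) and -1.91 for Myc (adjusted p = 8.59e-06). For Pecam1 and Peg3 the direct difference did not pass the test (adjusted p = 0.528 and 0.661).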

How the data were processed

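Messenger RNA of 6 libraries was read from 1 deposited table that gives, per the file headers, an RPKM value for each gene and library. The submitters' processing notes name CASAVA 1.7, STAR 2.3.0, Cufflinks and the mm10 build, without a role for each. The gene annotation stands in none of the sources used here. RPKM holds no counts, so depth and counting error are unknown. The authors' fold column was not used.

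Entries averaging 1 RPKM or more across all 6 libraries (11428 of 13743, with 13721 distinct symbols) were analysed as log2(RPKM + 1). The 3 groups entered 1 linear model (limma 3.58.1 under R 4.3.3), whose empirical Bayes step allowed for an intensity trend (3 residual and 5.38 prior degrees of freedom). Tests were two-sided, adjusted by Benjamini-Hochberg over all genes, and called under 0.05. The fit was tested on simulated data. Summed RPKM ran from 429460 to 493079 per library.

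Named genes are the 20 called genes with the highest and the 20 with the lowest log2 change, given groups that did not overlap and 5 RPKM in the higher group, the 10 largest changes in RPKM in each direction, and up to 8 called members of each of 46 gene lists (any tested member of lists under 16 genes). Nanog, Pou5f1, Otx2, Dnmt1, Dgcr8, Sparc, Gata6 and Col1a1 were added after their values were seen. Some genes that the rule names are not reported here. Genes and lists were chosen with earlier results of these data known. List counts are descriptions, beside the share of all genes called. Alternatives changed the pseudocount, the level filter, the scaling, the libraries fitted and the empirical Bayes settings, and left out each library in turn. Promoter windows are from RefSeq (GRCm38.p6), and 99.1% of tested genes matched a RefSeq entry. Figures were drawn with matplotlib 3.10.9.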

Additional observations from a re-analysis of the deposited data

How the results depend on the processing

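No named gene reversed direction in any of the 16 alternatives, and every gene called in both the reported fit and an alternative had the same sign. Of the named genes with a call, 132 of 165 kept it in all alternatives that gave a value, and 33 lost it in at least 1, mostly without a siMbd2 library. The number of genes that rose (2231) ran from 848 to 3350 when 1 library was left out, being 3350 without CTR replicate 1, 1028 without siMbd2 replicate 1 and 848 without siMbd2 replicate 2. The number that fell (1702) ran from 562 to 2085, being 828 without siMbd2 replicate 1 and 562 without siMbd2 replicate 2, and was 1101 with a minimum mean of 5 RPKM. Without 1 library of a group, the lone sample is assumed to vary like the other groups. Rises of at least 1.5-fold (371) ran from 312 to 559 without 1 library, with 559 without CTR replicate 1. Falls of at least 1.5-fold (351) were 609 with a pseudocount of 0.1, since more low genes then pass that fold, and 175 with a minimum mean of 5 RPKM, since fewer genes are tested. The share of called genes that rose was 56.7%, and 51.9% after quantile normalization. List counts moved likewise: over the alternatives, the members that rose ran from 3 to 63 for cytosolic ribosomal proteins (fewest without siMbd2 replicate 1, 63 without CTR replicate 1), 5 to 23 for MYC-responsive growth genes, 0 to 13 for cholesterol and fatty acid synthesis and 11 to 21 for epithelial genes (each fewest without siMbd2 replicate 2 and most without CTR replicate 1), 6 to 13 for glycolysis and 7 to 27 for the nuclear-encoded respiratory chain (fewest without siMbd2 replicate 1, most without CTR replicate 1), while the glutathione and NRF2 targets that fell ran from 4 to 15. The Mbd2 change stayed between -1.99 and -1.76.

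Replicate numbers were not taken as pairs: across genes, replicate 1 minus replicate 2 correlated at 0.132 between CTR and siMbd2, 0.119 between CTR and miR-294 and 0.022 between siMbd2 and miR-294. With the replicate number as a block, 2433 genes rose and 1872 fell, and 99.5% of the reported calls were kept. The planned comparison of promoter composition and its alternatives were not run, because too few genes had a window. RPKM gives no depth, so genes near 1 RPKM carry an unknown counting error.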
